A study of Mus musculus with 9 samples.

Results

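Capillary endothelial nuclei outside the cell cycle were selected from single-nucleus Drop-seq libraries of postnatal mouse ventricles, and they numbered 1212 of 33000 deposited barcodes. A barcode entered when it carried at least 500 UMIs (unique molecular identifiers, each counting 1 captured RNA molecule) outside the mitochondrially encoded genes, with at least 1.5% of them from the nuclear RNA Malat1. It also had to hold at least 3 UMIs summed over 9 capillary genes (Flt1, Kdr, Btnl9, Meox2, Gpihbp1, Adgrl4, Egfl7, Cyyr1 and Ushbp1), and this sum had to exceed that over 6 genes of endocardium and other vessels (Nrg1, Npr3, Vwf, Chrm3, Tmem108 and Plvap). At most 3 UMIs of the fibroblast genes Col1a2, Col3a1, Pdgfra and Abca8a and at most 1 UMI of the cycling genes Mki67, Top2a, Ect2, Kif15, Knl1 and Esco2 were allowed. The size and Malat1 thresholds left 21770 barcodes, the capillary minimum 2413, the comparison with the rival genes 2069, the fibroblast limit 1524 and the cycling limit 1212. The other 20558 nuclei served as the comparison, and 816 of them, chosen by the same rule with the capillary and rival genes exchanged, are called endocardial below.

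The study followed the maturation of heart cells after birth and its course without 2 estrogen-related receptors, ERRα and ERRγ, nuclear receptors that regulate genes of mitochondrial energy metabolism. All mice were C57BL6/J, and nuclei came from ventricles that were either fresh or frozen, with no record of which. Controls were ERRalphaHet/ERRgammaWT, so the control animals themselves lacked 1 ERRα allele, and they were taken at postnatal day 6 (control P6, 3 libraries) and at postnatal days 9 to 10 (control P10, 3 libraries). Knockouts were ERRalphaKO/ERRgammaKO at postnatal days 9 to 10 (knockout P10, 3 libraries). Sex was not determined in the labels. The labels give no promoter or Cre line for the knockout and do not tie libraries to individual animals, so every p-value measures the spread between libraries.

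Several library features bear on all results. Knockout libraries 1 and 2 shared 465 barcodes, against 0 to 12 in any other pair, and the shared barcodes were left out of knockout library 2. Xist RNA from the inactive X chromosome had 4061 to 7810 UMIs in all control P6 libraries, 1745 in control P10 library 1 and 5158 in knockout library 1, and 2 to 4 in the other 4 libraries, so age and this mark of sex cannot be fully told apart. Mitochondrially encoded genes, which were left out of all sums, made up 0.974% to 2.67% of the UMIs of capillary nuclei at control P6, 26.6%, 8.81% and 15.6% at control P10 and 5.72%, 17.1% and 9.20% in knockouts. All 6 P10 libraries thus lay above all P6 libraries in this sign of nuclear quality, and its part in the age differences was not tested. Capillary sums held 134314 to 229518 UMIs at control P6, 68458 to 316258 at control P10 and 44310.0 to 120146 in knockouts. Of the 2 targeted genes Esrra was sparse here, with 3, 19 and 17 UMIs in the capillary nuclei of the control P10 libraries and 2, 1 and 0 in the knockouts. Esrrg was not, with 58, 127 and 199 UMIs at control P10 and 33, 31 and 7 in the knockouts. Levels are in CPM, the usual counts-per-million scale of summed UMIs. Values of single libraries in the comparisons of age and genotype are scaled by edgeR's library factors. Pooled levels, means over libraries in other nuclei, sums over marker lists and the levels beside interaction tests use the UMI totals without such factors. Esrrg stood at 846, 509.8 and 628 factor-scaled CPM at control P10 and at 582, 273 and 155 CPM in knockouts, where knockout library 1 overlapped the controls. Poly(A)-primed reads of Esrrg that lie outside a deleted stretch would still be counted, and the labels do not give the stretch.

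Cardiac capillary endothelium lines the exchange vessels of the heart muscle and is specialised for taking fatty acids out of the blood: lipoprotein lipase is carried to the vessel wall by Gpihbp1, Cd36 imports fatty acids, and the binding proteins Fabp4 and Fabp5 carry them inside the cell. VEGF from muscle acts on the receptors Kdr and Flt1 with the co-receptors Nrp1 and Nrp2, and drives sprouting in which tip cells lead and stalk cells, held back by Notch signalling, follow. After birth the capillary bed of the ventricle grows with the muscle and its endothelium passes from sprouting to a quieter barrier state.

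The label was checked against genes that the selection did not use. Of 15 endothelial genes outside the rule, 14 were at least 2-fold higher in the pooled capillary nuclei than in other nuclei, and the remaining one, Cd36, stood 1.96-fold higher. Fabp4 reached 3051 CPM against 590.5 in other nuclei, Pecam1, an adhesion molecule of all endothelium, 634 against 131, and the junction gene Cldn5 134 against 14.3. Relative to endocardial nuclei, capillary nuclei were high in Cldn5 (5.03 CPM there), in the transcription factor Tcf15 (98.3 against 11.3 CPM) and in the guidance receptor Robo4 (102 against 10.1 CPM). Emcn, at 426 against 1305 CPM, Tek, at 342 against 609 CPM, and Eng, at 383 against 819 CPM, were higher in endocardial nuclei. Pecam1, at 634 against 732 CPM, and Tie1, at 272 against 311 CPM, were somewhat higher there as well. These ratios describe the selected nuclei and carry no test, because the nuclei were chosen by their expression.

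Ratios to other nuclei were ranked on levels pooled over all 9 libraries, and the order differed within single libraries. The genes with the highest ratio, among those of at least 200 CPM outside the rule, were Ifi203-ps (9.53-fold), the cytoskeletal adaptor Kank3 (7.46-fold), the protocadherin Pcdh17 (7.23-fold), Ablim3 (6.87-fold) and the VEGF co-receptor Nrp2 (6.77-fold). Shank3, the caveola protein Cav1, Nav3, Arap3 and the transcriptional cofactor Ldb2 followed at 6.57 to 6.01-fold. Against endocardial nuclei the widest gaps in this set were those of Ifi203-ps, Ablim3 and Pcdh17, at 48.4, 13.2 and 10.6-fold. Kitl, which encodes the ligand of the receptor Kit, stood at 647 CPM, 5.79-fold over other nuclei. Genes of arteries, veins and lymphatics were in part raised as well. Of 10 arterial genes 8 were at least 2-fold above other nuclei, led by Sema3g at 6.83, Sox17 at 5.97 and Efnb2 at 3.67-fold, while Fbln5 stood at 0.737-fold. Of 6 venous genes 4 were over 2-fold above other nuclei (Aplnr at 8.81, Ephb4 at 3.63, Nr2f2 at 2.32 and Selp at 2.09-fold), and of 7 lymphatic genes 4 were (Flt4 at 5.28, Mmrn1 at 3.80, Lyve1 at 2.22 and Reln at 2.02-fold), while the lymphatic regulator Prox1 stood at 103 against 97.5 CPM. Pdpn, Ccl21a and Ackr1 had no UMI in any capillary nucleus, and other nuclei held only 0.258, 0.129 and 0.172 CPM of them.

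Cardiomyocyte RNA was present in every capillary nucleus. A list of 12 cardiomyocyte genes that includes Ttn made up 1.54%, 1.85% and 2.67% of capillary UMIs at control P6, 3.71%, 3.12% and 3.75% at control P10, and 5.06%, 5.44% and 3.75% in knockouts. All 12 genes were detected, and 11 of them were lower than in other nuclei. The summed level of the 15 endothelial genes was highest at control P6, at 13058, 10513 and 10794 CPM at control P6, 5259, 8412 and 6564 at control P10 and 3569, 6376 and 7921 in knockouts. Fabp4 alone made up 5137, 4519 and 5408 CPM of these sums at control P6, 745, 2782 and 1647 at control P10 and 714, 1773 and 1873 in knockouts. A large part of the difference between ages in this sum was thus that of 1 gene. Fibroblast markers were lower in capillary than in other nuclei for 8 of 8 genes, and their sum went from 771 to 926 CPM at control P6 to 1716 to 2324 at control P10 and 1681 to 2821 in knockouts. Of 8 pericyte and smooth muscle genes 4 were higher in capillary nuclei, Rgs5 at 554 against 197 CPM (2.82-fold), Kcnj8 at 2.16-fold, Pdgfrb at 1.46-fold and Notch3 at 1.09-fold, and their sum ran from 618 to 1521 CPM at control P6, 1315 to 1714 at control P10 and 924 to 2212 in knockouts. Hemoglobin and other red cell genes summed to 15839 CPM in knockout library 2, against 1607 to 4884 in the other libraries. How far this foreign RNA enters the differences reported below was not tested directly, and fits that hold the cardiomyocyte level as a covariate, or limit it per nucleus, are given beside the counts.

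Members near the edge of the selection were the less distinct ones. Nuclei with 2 capillary UMIs, just outside the rule and otherwise eligible, numbered 550 and held 3412 CPM of the 15 endothelial genes and 46954 CPM of the cardiomyocyte list. The 290 members with exactly 3 capillary UMIs, just inside, held 5066 and 41332 CPM, the 384 members with 6 to 10 held 9260 and 29873 CPM, and the 142 members with over 10 held 13342 and 22417 CPM. Their median size was 829 UMIs just outside, 792 just inside and 1338 in the top class. The median capillary sum per member was 7, 6 and 6 in the younger controls, 4, 5 and 5 in the older controls and 3, 4 and 4 in knockouts, so older and mutant members lay closer to the edge.

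Arterial and venous genes divided the members only in part. With every nucleus thinned to 500 UMIs, 1 or more UMIs of 10 arterial genes were found in 27.1% to 40.1% of members at control P6, 27.1% to 39.6% at control P10 and 26.3% to 37.7% in knockouts, while other nuclei ranged from 8.95% to 23.8%. For 6 venous genes the members held 17.2% to 28.8% at control P6, 8.47% to 21.7% at control P10 and 10.5% to 22.6% in knockouts. Before thinning, the arterial shares ran from 36.4% to 60.8% and the venous shares from 13.6% to 46.6%. The arterial shares lean on Mecom, with 800 UMIs in capillary nuclei against at most 174 (Efnb2) for any other gene of that list. Mecom is not particular to arteries here, at 591 CPM in capillary and 1094 CPM in endocardial nuclei. Lymphatic genes were found after thinning in 2.63% to 13.2% of members and in 3.95% to 8.40% of other nuclei, so the ranges overlapped.

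Members made up 12.6% of nuclei in control P6 library 1 (95% Wilson interval 11.2% to 14.3%), 5.45% in library 2 (4.61% to 6.45%) and 5.32% in library 3 (4.46% to 6.33%). At control P10 they made up 3.83% (2.98% to 4.91%), 6.12% (5.37% to 6.97%) and 7.83% (6.98% to 8.78%), and in knockouts 1.996% (1.46% to 2.73%), 4.25% (3.54% to 5.10%) and 2.10% (1.61% to 2.74%). The intervals cover counting error only. The libraries of one group spread more widely than these intervals, and control P6 library 1 stood far above its group.

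The mean share was 7.80% ± 4.19 at control P6 and 5.93% ± 2.01 at control P10 (SD, n = 3 each), a difference of -1.87 percentage points that did not exceed the spread (exact permutation test, two-sided p = 0.7, smallest possible 0.1) and turned to 0.545 without control P6 library 1. In knockouts it was 2.78% ± 1.27 (SD, n = 3), which is -3.15 points from control P10 (exact permutation test, two-sided p = 0.2). Knockout library 2 lay above control P10 library 1. Under other settings the age difference was -3.38 points after thinning to 500 UMIs (exact permutation p = 0.2) and -3.81 points among nuclei with at most 3% cardiomyocyte UMIs (exact permutation p = 0.1). The knockout difference was -1.64 points after thinning (exact permutation p = 0.2). It reached the smallest possible exact permutation p of 0.1 with Malat1 of at least 5% (-3.22 points), with at least 1000 UMIs (-3.81 points) and with at most 3% cardiomyocyte UMIs (-2.24 points). Fewer capillary cells and fewer capillary RNA molecules per nucleus cannot be told apart in this measure, since a nucleus enters only with 3 capillary UMIs.

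**Figure D1:**
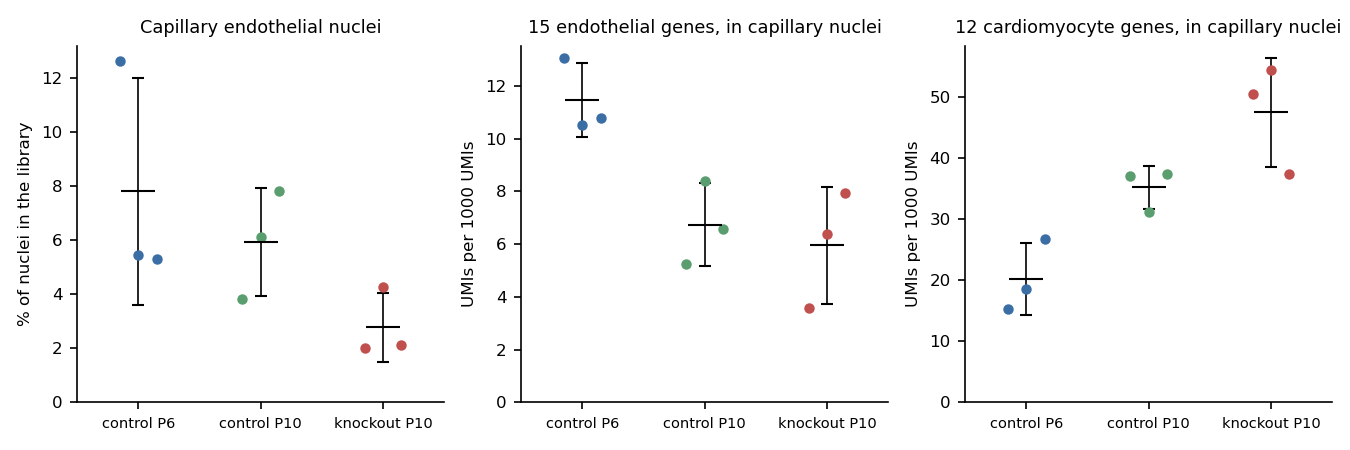
Share of capillary endothelial nuclei among the nuclei of each library (left, percent) and the summed levels of 15 endothelial genes outside the selection (middle) and of 12 cardiomyocyte genes (right) within them, in UMIs per 1000 UMIs. Points are libraries 1 to 3 of each group from left to right, bars mean and SD. The endothelial sum is highest in the 3 control P6 libraries (10513 to 13058 CPM) and the cardiomyocyte sum is lowest there. Fabp4 alone makes up 4519 to 5408 CPM of the endothelial sum at control P6 and 745 to 2782 CPM at control P10.

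The first comparison asked how capillary nuclei of controls differed between P6 and P10. UMIs were summed per library over its capillary nuclei and compared with edgeR's quasi-likelihood F test over 3680 genes that passed the filter on low counts, none of them used by the selection. A gene is said to have risen or fallen, or to be called, when its Benjamini-Hochberg adjusted p was under 0.05. Fold changes are log2 values of P10 over P6 with their standard error, and "up to" gives the highest adjusted p of the 9 fits that each left out 1 library. At P10, 306 genes had risen (8.32%) and 329 had fallen (8.94%), 17.3% of those tested. The 387 tested genes with a pooled level at least 2-fold above other nuclei, called capillary-biased, divided otherwise: 7 rose (1.81%) and 83 fell (21.4%), 23.3% of them in all, and their median log2 fold change was -0.50 against -0.01 over all genes. Of the 306 genes that rose, 247 (80.7%) had a lower level in capillary than in other nuclei, and of the 329 that fell, 26 (7.90%) did, against 1185 of all 3680 (32.2%). The pooled level took in all 9 libraries, also those compared. A gene high in capillary nuclei at control P6 could thus enter the capillary-biased set through that group. The divisions by level, and the shares of capillary-biased genes used below as background, are partly set by this choice and carry no test.

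Scaling and foreign RNA moved these counts. With library factors computed from the capillary-biased genes alone, an alternative chosen after seeing the data, the median of all genes shifted to 0.48, 725 genes rose and 109 fell, and the capillary-biased genes divided into 29 that rose and 32 that fell. With the cardiomyocyte level as a covariate, 13 genes rose and 57 fell, and without control P10 library 3, the library with the most capillary UMIs, 173 rose and 134 fell.

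**Figure D2:**
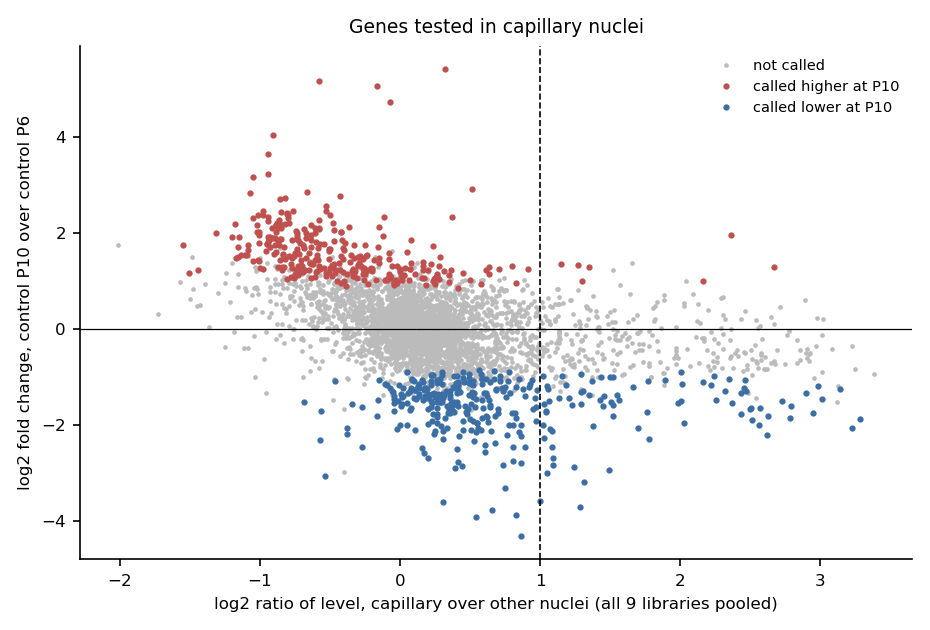
Each point is 1 of 3680 tested genes, by the log2 ratio of its pooled level in capillary over other nuclei (horizontal) and its log2 fold change in capillary nuclei from control P6 to control P10 (vertical), with the dashed line at 2-fold. Right of the line 7 genes are called higher and 83 lower, while most of the 306 genes called higher lie left of 0. The ratio pools all 9 libraries, including those compared.

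Several fatty acid handling genes were lower at P10. Of 12 tested genes of this list, 5 fell (Fabp4, Fabp5, Tcf15, Aqp1 and Aplnr), 2 rose (Lpl and Vldlr) and the median was -0.74, against a background of 8.94% of all genes falling and 8.32% rising. Of the 12 genes 8 were capillary-biased, a set in which 21.4% fell. Fabp4 (chromosome 3, 10204088 to 10208576, minus strand) measured 4985, 4466 and 5624 CPM at control P6 and 744, 2734 and 1643 CPM at control P10. The groups did not overlap (log2 -1.54 ± 0.44, adjusted p = 0.0163), yet the call was lost without control P10 library 1 (log2 -1.17, adjusted p = 0.0785) or 3 (log2 -1.50, adjusted p = 0.0828).

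Fabp5 (chromosome 3, 10012548 to 10016607, plus strand), its more widely expressed relative, fell furthest of the list, from 351, 780.0 and 478 CPM to 14.6, 108 and 53.6 CPM (log2 -2.94 ± 0.41, adjusted p = 7.6e-05). Every control P6 library was above every control P10 library, and the call held in all 25 alternatives that gave a value. In other nuclei Fabp5 was lower at P10 too, going from 162 to 33.5 CPM as means over libraries, and the difference between the 2 changes did not pass (edgeR interaction test, adjusted p = 0.447).

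Tcf15, a transcription factor that with Meox2 drives fatty acid uptake in heart endothelium, moved from 237, 88.3 and 187 to 43.8, 60.2 and 47.3 CPM (log2 -1.74 ± 0.41, adjusted p = 0.00408). Aqp1, a water channel of capillaries, moved from 288, 191 and 187 to 87.5, 124 and 101 CPM (log2 -1.07 ± 0.32, adjusted p = 0.0215, up to 0.146 without control P10 library 3). Aplnr, the apelin receptor, moved from 266, 169 and 291 to 29.2, 136 and 101 CPM (log2 -1.25 ± 0.37, adjusted p = 0.0198, up to 0.0876 without control P10 library 3). For each of these 3 genes the 2 groups of libraries did not overlap, as for 37.3% of all genes tested.

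Cd36, the fatty acid importer, did not pass, at 1768, 1383 and 1173 CPM and 1138, 1365 and 1340.5 CPM (log2 -0.17 ± 0.36, adjusted p = 0.785). Pparg, a nuclear receptor that activates Fabp4 and Cd36, stood at 203, 88.3 and 89.6 and 146, 177 and 110.4 CPM (adjusted p = 0.898). The 2 genes that rose were no higher here than in other nuclei: Lpl, the lipase, was at 0.985 times and Vldlr at 0.746 times the level of other nuclei. Lpl went from 630.0, 346 and 553 to 802, 1108 and 1069 CPM (log2 0.97 ± 0.34, adjusted p = 0.049, up to 0.228 without control P6 library 2).

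With factors from the capillary-biased genes, the calls on this list were Fabp5 and Tcf15 falling and Lpl, Vldlr and Acsl1 rising, and with the cardiomyocyte covariate only Fabp5 was called. Without control P10 library 3 they were 1 rise and 2 falls, and without control P10 library 1 they were 2 of each.

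Of 11 tested sprouting and tip cell genes, all had a negative log2 fold change (9 of them with factors from the capillary-biased genes), 7 fell and none rose, with a median of -1.09. Of the 11 genes 10 were capillary-biased, and among all capillary-biased genes 21.4% fell and the median was -0.50. Apln, the apelin peptide secreted by tip cells, measured 109.9, 169 and 172 CPM at control P6 and 14.6, 40.1 and 28.4 CPM at control P10 (log2 -2.21 ± 0.48, adjusted p = 0.002, up to 0.0179 without control P10 library 3). The control P10 values rest on 20 UMIs in all, and every one of the 3 libraries was below every P6 library. Its receptor gene Aplnr, above, fell in the same nuclei.

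Plxnd1, a semaphorin receptor that restrains sprouting, fell from 507, 397 and 373 to 146, 181 and 173 CPM (log2 -1.33 ± 0.29, adjusted p = 0.00247, up to 0.0308 without control P10 library 3). Robo4, which stabilises vessels, fell from 199, 132 and 142 to 43.8, 76.3 and 47.3 CPM (log2 -1.46 ± 0.36, adjusted p = 0.00579, up to 0.0891 without control P10 library 3). Nid2, a basement membrane nidogen, fell from 114, 177 and 157 to 29.2, 64.2 and 41 CPM (log2 -1.58 ± 0.40, adjusted p = 0.00664, up to 0.075 without control P10 library 3). All 3 genes were separated between the groups, and control P10 library 3 decided the call for Robo4 and Nid2.

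The other members that fell were Igfbp3 (log2 -2.29 ± 0.65), which binds insulin-like growth factors, the adhesion molecule Mcam (-1.09 ± 0.32) and Trp53i11 (-0.98 ± 0.34). Without control P10 library 3 only 2 members were called, Apln and Plxnd1, without control P6 library 2 there were 4, and without any other single library 6 to 8. Factors from the capillary-biased genes left 2 called (Apln and Igfbp3) and turned 2 of the 11 signs positive. With the cardiomyocyte covariate none was called while all 11 signs stayed negative, and in nuclei with at most 3% cardiomyocyte UMIs 6 were called, all falling. None of 8 tested VEGF and angiopoietin receptors and ligands was called, and Nrp1, Nrp2, Tek and Ptprb had log2 values of 0.33 ± 0.33, -0.13 ± 0.30, 0.16 ± 0.36 and 0.00 ± 0.37.

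**Figure D3:**
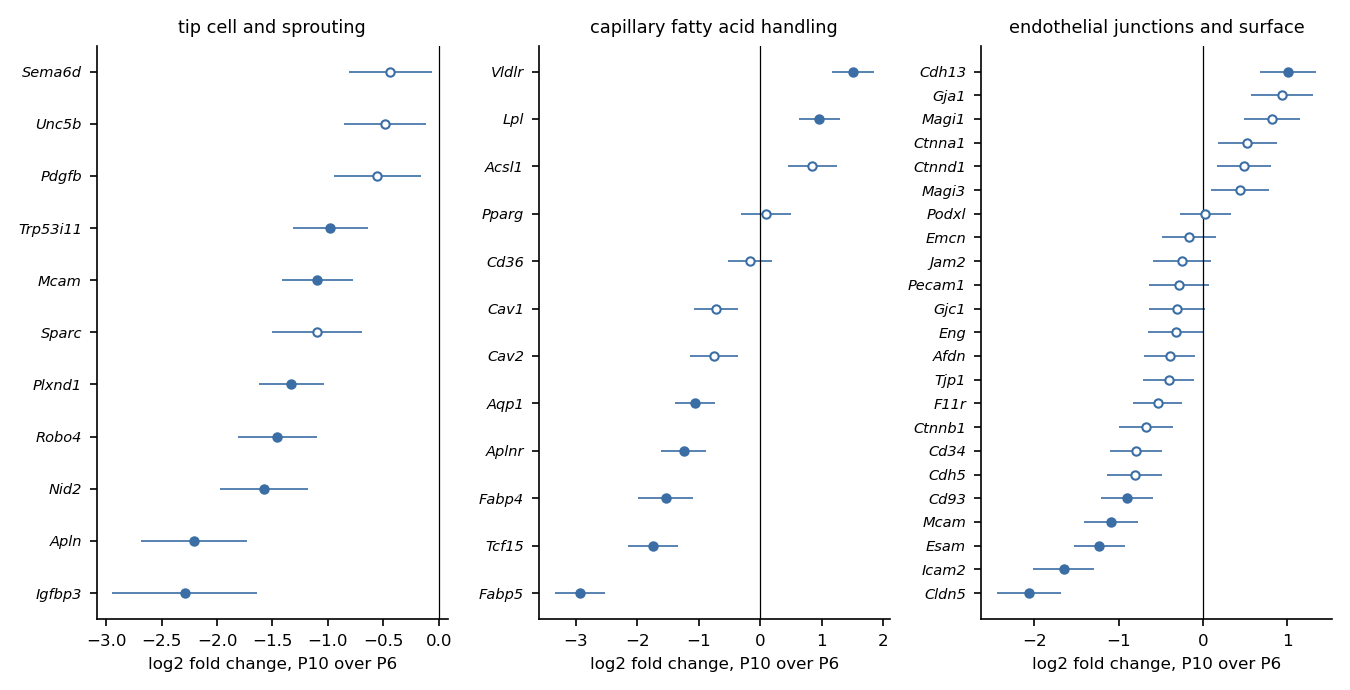
Log2 fold change in capillary nuclei from control P6 to control P10, with its standard error, for every tested gene of 3 lists; filled points had an adjusted p under 0.05. All 11 sprouting genes lie left of 0, while the fatty acid list holds 5 called falls and 2 called rises and the junction list 5 and 1.

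Junction and surface genes gave mixed calls. Of 23 tested, 5 fell (Cldn5, Icam2, Esam, Mcam and Cd93), 1 rose (Cdh13) and the median was -0.32. This count is near the background, since 14 of the 23 were capillary-biased, a set in which 21.4% fell, and 8.94% of all genes fell. Cldn5 (chromosome 16, 18776847 to 18778262, plus strand), the claudin of endothelial tight junctions, measured 304, 235 and 194 CPM at control P6 and 29.2, 76.3 and 53.6 CPM at control P10 (log2 -2.06 ± 0.38, adjusted p = 0.000597, up to 0.00691 without control P10 library 3). The lowest P6 library was above the highest P10 library by more than 2-fold.

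Esam, an adhesion molecule of tight junctions, fell from 292, 368 and 373 to 87.5, 173 and 148 CPM (log2 -1.23 ± 0.30, adjusted p = 0.00554, up to 0.0472 without control P10 library 3). Icam2 fell from 182, 272 and 321 to 29.2, 120.4 and 63.1 CPM (log2 -1.66 ± 0.36, adjusted p = 0.00233, up to 0.0309 without control P10 library 3). Neither group overlapped the other in these genes. The central endothelial cadherin Cdh5 did not pass, at 808, 434 and 560.1 and 233, 389 and 378 CPM (log2 -0.81 ± 0.32, adjusted p = 0.081), and Pecam1 had -0.28 ± 0.36. Cdh13, which is only 1.41 times higher here than in other nuclei, rose by log2 1.01 ± 0.33 (adjusted p up to 0.153 without control P6 library 3), and Cd93 also missed the threshold in 7 of the 9 fits that left out 1 library (adjusted p up to 0.185 without control P10 library 3).

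Leaving out single libraries gave 3 to 5 falls and 0 to 2 rises on this list, with 3 falls without control P6 library 2 or control P10 libraries 1 or 3. Scaling to capillary-biased genes gave 2 falls (Cldn5 and Icam2) and 4 rises (Cdh13, Ctnnd1, Gja1 and Magi1) and turned the median to 0.17. The covariate fit called none.

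Id1 and Id3, known targets of BMP signalling, were lower at P10, while their list as a whole was called in 3 of 16 tested genes, near the 17.3% of all genes. Id1 went from 304, 309 and 590.0 to 43.8, 165 and 104 CPM (log2 -1.77 ± 0.36, adjusted p = 0.00127, up to 0.0144 without control P10 library 3), and Id3 from 495, 456 and 485 to 87.5, 229 and 129 CPM (log2 -1.59 ± 0.33, adjusted p = 0.00153, up to 0.0265 without control P10 library 3). Both encode inhibitors of helix-loop-helix factors, their libraries did not overlap between ages, and Id1 was called in all 25 alternatives. Of the 16 tested genes of TGF-beta and BMP signalling they were the 2 that fell, the median was -0.18, and the receptor Bmpr1a, at 0.567 times the level of other nuclei, was the 1 that rose (log2 1.46 ± 0.38, adjusted p up to 0.0574 without control P6 library 1). Ccnd1, cyclin D1, went from 389, 375 and 433 to 72.9, 177 and 142 CPM (log2 -1.49 ± 0.32, adjusted p = 0.00197, up to 0.0189 without control P10 library 3), in nuclei already selected for low cycling genes.

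Among 17 genes of insulin and IGF signalling, Igf2, H19, Igfbp3 and Igfbp4 fell and Insr rose, against 17.3% of all genes called. The imprinted fetal growth factor Igf2 measured 1015, 1457 and 1225 CPM at control P6 and 481, 502 and 473 CPM at control P10 (log2 -1.34 ± 0.34, adjusted p = 0.00818, up to 0.0641 without control P10 library 3). The neighbouring noncoding gene H19 fell from 1019, 1442 and 1539 to 569, 377 and 205 CPM (log2 -1.86 ± 0.39, adjusted p = 0.00147, up to 0.0339 without control P10 library 3). Insr, the insulin receptor, rose from 80.3, 103 and 97.1 to 306, 297 and 274 CPM (log2 1.65 ± 0.38, adjusted p = 0.00344, up to 0.0182 without control P6 library 1) at 0.758 times the level of other nuclei. Igf2 was 1.52 and H19 1.78 times the level of other nuclei. Without control P10 library 3 the falls numbered 1, and without control P6 library 2 they numbered 2. Factors from the capillary-biased genes gave 5 rises and 2 falls and turned the list's median from -0.23 to 0.27.

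Of the Notch, flow and antigen presentation lists, 3 of 6, 6 of 11 and 2 of 7 tested genes were called, against 17.3% of all genes. Of 6 tested Notch genes, the effector Hes1 fell (log2 -1.11 ± 0.35, adjusted p up to 0.207 without control P10 library 3) and the coactivators Maml2 (1.24 ± 0.34, adjusted p up to 0.0807 without control P6 library 3) and Maml3 (1.08 ± 0.33, adjusted p up to 0.143 without control P10 library 3) rose. Dll4, the tip cell ligand, went from 97.3, 73.6 and 52.3 to 14.6, 24.1 and 31.5 CPM and just missed the threshold (log2 -1.52 ± 0.55, adjusted p = 0.0551). Of 11 flow and nitric oxide genes, Klf2 (log2 -0.99 ± 0.33, adjusted p up to 0.239 without control P10 library 3), S1pr1 (-1.21 ± 0.35, adjusted p up to 0.189 without control P10 library 3) and Edn1 (-2.46 ± 0.82, adjusted p up to 0.525 without control P6 library 2) fell, and Pde3a, Pde4d and Prkg1 rose, each at a level below that of other nuclei. Without control P10 library 3 or control P6 library 3, or with factors from the capillary-biased genes, none of the 11 fell and the 3 rises stayed. Nos3, the endothelial nitric oxide synthase, was at 190.3, 206 and 172 and 146, 201 and 132 CPM (log2 -0.23 ± 0.31, adjusted p = 0.645). H2-D1 (log2 -1.74 ± 0.35, adjusted p up to 0.0119 without control P10 library 3) and B2m (-1.43 ± 0.35, adjusted p up to 0.0214 without control P10 library 1), the chains of class I antigen presentation, fell among 7 tested genes of that list.

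Of the fatty acid oxidation, respiratory chain and glycolysis lists, 1 of 17, 7 of 44 and 0 of 11 tested genes were called, against 17.3% of all genes, so the respiratory chain share was near the background. Of 17 fatty acid oxidation genes only the regulator Ppara was called, rising by log2 2.20 ± 0.49 at 0.577 times the level of other nuclei. Of 44 respiratory chain and TCA cycle genes 5 fell, 2 rose and the median was -0.05. Esrrg itself rose, from 101, 169 and 127 to 846, 509.8 and 628 CPM (log2 2.31 ± 0.38, adjusted p = 0.000237, up to 0.00167 without control P6 library 1), with the coactivators Ppargc1a (2.31 ± 0.47) and Ppargc1b (1.52 ± 0.36). All 3 were below the level of other nuclei, at 0.574, 0.484 and 0.592 times it, and none was called with the cardiomyocyte covariate.

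The named capillary-biased genes that rose were Prkch, Ccdc85a, Stox2, Tmtc2 and Spata13. Prkch, a protein kinase C, went from 199, 147 and 105 to 336, 241 and 359.6 CPM (log2 1.00 ± 0.33, adjusted p = 0.0343, up to 0.187 without control P10 library 3). Stox2 went from 533, 346 and 164 to 904, 787 and 908 CPM (log2 1.29 ± 0.36, adjusted p = 0.0141, up to 0.0966 without control P6 library 3). Ccdc85a, 6.36-fold above other nuclei, went from 106, 58.9 and 82.2 to 175, 193 and 239.7 CPM (log2 1.28 ± 0.33, adjusted p = 0.00796, up to 0.083 without control P10 library 3). In all 3 the P10 libraries lay above the P6 libraries. Such separation was a condition for naming these genes, and 37.3% of all tested genes showed it in either direction. Tmtc2 had log2 1.33 ± 0.34 (adjusted p up to 0.0514 without control P6 library 3) and Spata13 1.34 ± 0.44 (adjusted p up to 0.167 without control P6 library 1). The 10 named capillary-biased genes that fell most were Gm4604, Rps24-ps3, RP23-13B8.12, Gm5905, Fabp5, Gm5805, Gm8292, Gm9794, Gm9843 and Igfbp3. Apart from Fabp5 and Igfbp3 they stood only 2.00 to 2.49-fold above other nuclei.

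**Figure D4:**
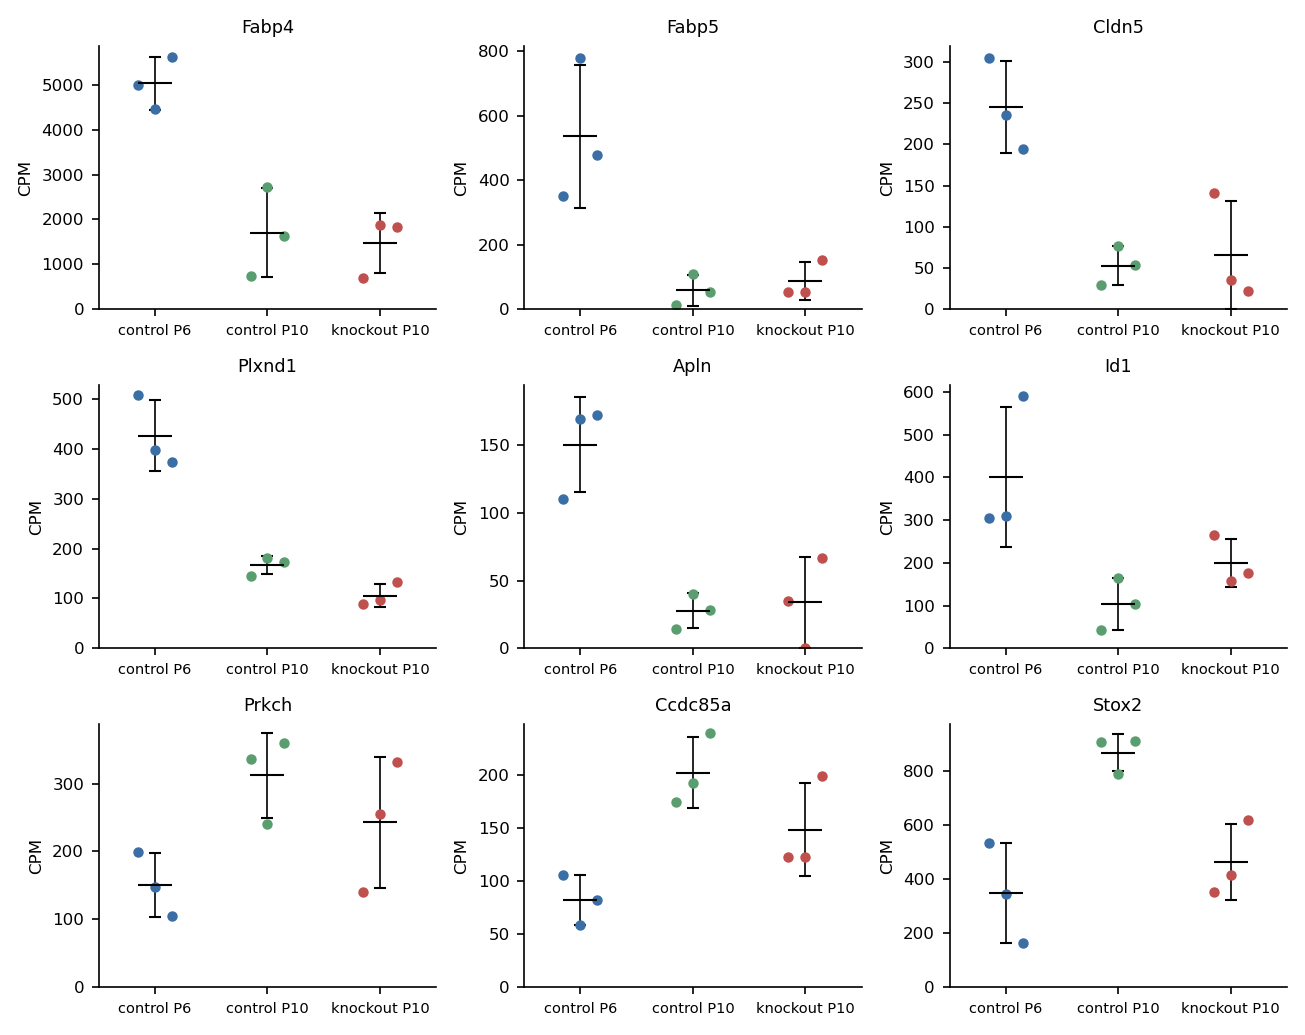
Level in capillary nuclei (CPM, linear axes from 0) of 6 genes called lower and 3 called higher at control P10 than at control P6, by library. Points are libraries 1 to 3 from left to right and bars mean and SD; the knockout libraries are shown for reference, and Fabp5 stands at 351, 780.0 and 478 CPM at control P6 and at 14.6, 108 and 53.6 CPM at control P10.

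The Y-linked genes Ddx3y, Eif2s3y and Uty rose by log2 5.41 ± 1.00, 5.07 ± 1.04 and 4.72 ± 0.90, beside the fall of Xist given above, and with the Xist level as a covariate 409 genes were called in all. Apart from Y-linked genes, the 10 that rose most included Pdzrn4, Mylk4, Kcnd2, Corin and Cacna1c, each at 0.519 to 0.670 times the level of other nuclei. Cacna1c, the cardiac calcium channel, went from 461, 508 and 530.3 to 4376, 2533 and 2984 CPM (log2 2.72 ± 0.39, adjusted p = 8.8e-05, up to 0.000864 without control P6 library 2), beside the higher cardiomyocyte sums at P10 given above. The 10 that fell most included Rpl29, Rpl35, Rps26-ps1, Rps24-ps3 and Gng5, a G protein subunit. Of 45 tested ribosomal protein genes 40 fell, with a median of -1.75, and their share of capillary UMIs was 1.55% to 1.995% at control P6, 0.336% to 0.824% at control P10 and 0.965% to 1.32% in knockouts. In other nuclei this share was also lower at P10, going from 0.867% to 1.196% at control P6 to 0.272% to 0.627% at control P10. Reads of a ribosomal gene and its near-identical pseudogene copies cannot be assigned with certainty.

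The genes that rose and fell also differed in length. The median span from first to last annotated base was 214 kb for genes that rose and 6.32 kb for genes that fell, against 49.9 kb over all tested genes, and among the capillary-biased genes 198.6 and 8.26 kb. Positions were found for 3617 of 3680 genes. Malat1, a mark of nuclear RNA, made up 5.10% to 7.26% of capillary UMIs at control P6 and 7.07% to 7.87% at control P10; the part of RNA compartment in the difference was not tested.

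The second comparison asked how capillary nuclei of knockouts differed from those of controls at P10. It called 47 genes, 1.28% of those tested, of which 37 were higher (1.01%) and 10 lower (0.272%) in knockouts. Of the 387 capillary-biased genes 3 were called (0.775%): Nrp2 and Dach1 were lower (0.517%) and Ctla2a was higher (0.258%), with a median log2 fold change of -0.30 against -0.01 over all genes. The calls numbered 17 without knockout library 2, 16 without control P10 library 3 and 85 without control P10 library 2. They numbered 3 with the cardiomyocyte covariate, and 56 higher and 1 lower with factors from the capillary-biased genes, which shifted the median of all genes to 0.30 and left 2 capillary-biased genes higher and 0 lower. The control P10 libraries enter both comparisons, so the values of a gene in them are not independent.

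Nrp2 (chromosome 1, 62703285 to 62818695, plus strand), a co-receptor for VEGF and semaphorins, stood at 423, 365 and 404 CPM in control P10 libraries and at 88.1, 132 and 155 CPM in knockouts, and had been at 575, 353 and 358 CPM at control P6. The 3 knockout libraries, with 27 UMIs in all, lay below every control library of either age, in a comparison where 18.9% of all tested genes had separate P10 groups (log2 -1.66 ± 0.38, adjusted p = 0.0205). The call was lost without control P10 library 3 (log2 -1.68, adjusted p = 0.0865), knockout library 1 (log2 -1.50, 0.0781) or knockout library 2 (log2 -1.77, 0.18), and with factors from the capillary-biased genes (log2 -1.41, 0.0695), and in 10 of 25 alternatives in all, while the fold without a single one of these libraries stayed close to that of the full set. Its paralogue Nrp1, which is 1.42 times the level of other nuclei, went from 1138, 1076 and 1119.7 to 476, 476 and 840.1 CPM and did not pass (log2 -0.92 ± 0.35, adjusted p = 0.207).

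Estrogen-related receptors are known to bind the motif AAGGTCA, and the promoter windows of the 2 neuropilins are shown because Nrp2 was the capillary-biased receptor called here and Nrp1 is 1 of 5 genes with the motif among the 83 named genes matched to a window. Each window runs from 250 bases before to 50 after a RefSeq start (GRCm38.p6), 5′ to 3′ on the plus strand, Nrp2 at chr1:62703067-62703366 and Nrp1 at chr8:128358823-128359122, with capitals marking the motif on either strand.
Nrp2: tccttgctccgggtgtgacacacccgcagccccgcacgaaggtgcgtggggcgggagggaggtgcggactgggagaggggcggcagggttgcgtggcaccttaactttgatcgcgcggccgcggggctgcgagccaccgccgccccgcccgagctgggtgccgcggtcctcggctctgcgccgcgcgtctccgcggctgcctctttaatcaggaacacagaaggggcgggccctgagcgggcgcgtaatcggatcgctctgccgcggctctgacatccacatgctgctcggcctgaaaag
Nrp1: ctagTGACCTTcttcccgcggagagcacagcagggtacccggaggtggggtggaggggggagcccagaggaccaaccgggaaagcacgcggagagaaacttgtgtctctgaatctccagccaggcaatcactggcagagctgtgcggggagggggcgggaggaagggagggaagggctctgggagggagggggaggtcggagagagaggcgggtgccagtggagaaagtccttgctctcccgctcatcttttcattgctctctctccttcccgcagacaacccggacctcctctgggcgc
The Nrp1 window holds 1 match, in reverse orientation and starting at base 5 of the window, and the Nrp2 window holds none. Of all 32851 windows 4.72% hold the motif on either strand, and of the 3800 windows of tested genes 3.21%. The 50 windows found for 36 of the 47 called genes hold it in 0 cases. A match or its absence in these 300 bases is a description and says nothing about binding.

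Dach1 (chromosome 14, 97786853 to 98169765, minus strand), a transcription factor of coronary vessel growth, stood at 554, 686 and 1035 CPM in controls and 159, 141 and 398 CPM in knockouts (log2 -1.82 ± 0.47, adjusted p = 0.0462). Its call was lost without control P10 library 3 (log2 -1.57, adjusted p = 0.227), knockout library 1 (log2 -1.68, 0.108) or knockout library 2 (log2 -1.54, 0.305), and without the nuclei of highest doublet score, and it rests on 43 knockout UMIs. The call was also lost with at least 1000 UMIs (adjusted p = 0.216), with Malat1 of at least 5% (0.193) and after thinning (0.0838). The same held without the shared barcodes in either library (0.0776), with the cardiomyocyte covariate (0.383) and with factors from the capillary-biased genes (0.0596). In other nuclei Dach1 was also lower in knockouts, at 69.97 against 193 CPM as means over libraries, and Nrp2 at 27.3 against 73.6 CPM. The difference between capillary and other nuclei in these changes did not pass (adjusted p = 0.921 and 0.975).

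Ctla2a (chromosome 13, 60934155 to 60936625, minus strand), which encodes an inhibitor of cysteine proteases, stood at 58.4, 84.3 and 44.2 CPM at control P10 and at 212, 388 and 243 CPM in knockouts (log2 2.23 ± 0.38, adjusted p = 0.0011). At control P6 it had been at 224, 294 and 254 CPM, so it fell with age in controls (log2 -2.02 ± 0.35, adjusted p = 0.00033), and the knockout range overlapped that of P6. The knockout call was lost without control P10 library 3 (log2 1.89, adjusted p = 0.0517) or knockout library 2 (log2 1.82, 0.0935). It was also lost with the cardiomyocyte covariate (log2 2.15, adjusted p = 0.0637) and with at least 1000 UMIs (log2 1.80, 0.0806). In other nuclei the mean level over libraries was 28.7 CPM in controls and 109.9 CPM in knockouts.

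**Figure D5:**
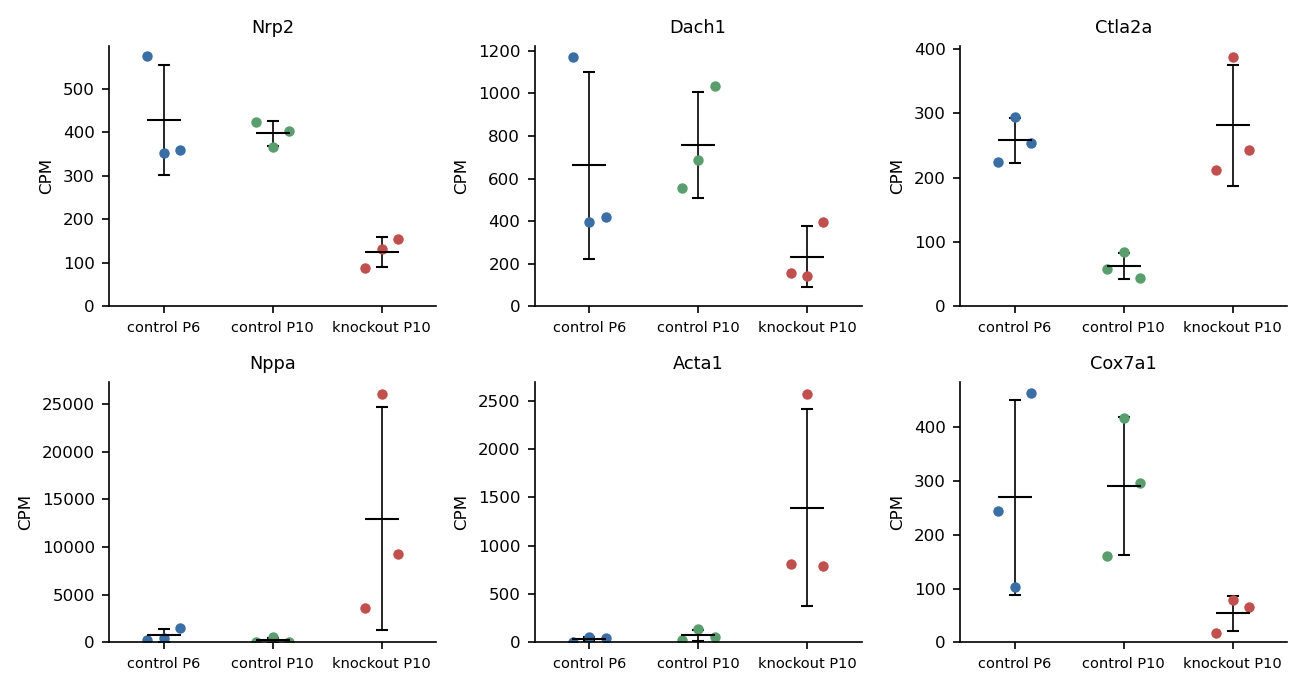
Level in capillary nuclei (CPM, linear axes from 0) of 6 genes called between knockout and control at P10, by library, with mean and SD. Nrp2, Dach1 and Cox7a1 are lower and Ctla2a, Nppa and Acta1 higher in the 3 knockout libraries than in the 3 control P10 libraries, without overlap. Separate groups were a condition of the ranking that names these genes.

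Several of the genes raised most are known from stressed cardiomyocytes. Nppa, atrial natriuretic peptide, stood at 43.8, 518 and 85.2 CPM in control P10 libraries and at 3614, 26045 and 9308 CPM in knockouts (log2 5.81 ± 0.82, adjusted p = 0.000139, up to 0.000288 without control P10 library 3). In other nuclei it was at 293 and 10923 CPM as means over libraries. Acta1, skeletal muscle actin, stood at 29.2, 136 and 56.8 and 811, 2572 and 796 CPM (log2 4.10 ± 0.51, adjusted p = 3.9e-05, up to 0.000262 without control P10 library 3), and both calls held in every alternative that gave a value. Nmrk2 (log2 4.49 ± 0.73), Nppb (3.25 ± 0.58), Rxfp1 (3.23 ± 0.53) and Ctgf (3.19 ± 0.46) were called in all 9 fits that left out 1 library.

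The remaining named genes that were higher were the atrial light chain Myl7 (log2 4.16 ± 0.59, adjusted p up to 0.221 without knockout P10 library 2), Fhl1 (3.23 ± 0.55, adjusted p up to 0.0844 without knockout P10 library 2), the small heat shock protein Hspb1 (2.75 ± 0.63, adjusted p up to 0.284 without knockout P10 library 2) and Tmem100 (2.74 ± 0.52, adjusted p up to 0.0863 without control P10 library 3). Of the 37 genes called higher, 23 (62.2%) had a lower level in capillary than in other nuclei, against 32.2% of all tested genes. The cardiomyocyte sum was 5.06% and 5.44% of capillary UMIs in knockout libraries 1 and 2 against at most 3.75% in any control, and 3.75% in knockout library 3. With this level as a covariate 2 genes were called higher and 1 lower, and among nuclei with at most 3% cardiomyocyte UMIs 8 higher and 2 lower, of 2667 genes that could be tested there.

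Cox7a1, the heart and muscle subunit of cytochrome oxidase and a gene of the respiratory chain list, was lower, at 160.5, 417 and 296 CPM in controls and 17.6, 79.3 and 66.3 CPM in knockouts (log2 -2.37 ± 0.55, adjusted p = 0.0205, up to 0.0871 without knockout P10 library 2). It was the only called member of 44, whose median was -0.36. Gm30382 (log2 -3.56 ± 0.65, adjusted p up to 0.0344 without knockout P10 library 2), Pdzrn4 (-1.92 ± 0.45, adjusted p up to 0.284 without knockout P10 library 2) and C130080G10Rik (-1.69 ± 0.40, adjusted p up to 0.307 without knockout P10 library 2) were lower as well. Slc13a3, Gm12381 and Zfp804b were called lower in the full set, and each lost its call without several single libraries.

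The lists held few calls, as did all genes (1.28%), so the absence of a call in lists of this size is not a result about them. None of 12 fatty acid handling genes, 11 sprouting genes, 23 junction genes, 16 TGF-beta and BMP genes, 6 Notch genes, 17 fatty acid oxidation genes or 11 glycolysis genes was called between knockout and control. Their median log2 fold changes were, in this order, -0.15, -0.36, -0.26, 0.05, -0.17, -0.14 and 0.95, against -0.01 over all genes. Of 45 ribosomal protein genes 3 were called higher and 0 lower, with a median of 0.99. Fabp4 stood at 705, 1876 and 1835 CPM in knockouts (log2 -0.22 ± 0.45), Cd36 at 705, 1462 and 1636 (-0.02 ± 0.37) and Cldn5 at 141, 35.2 and 22.1 (0.07 ± 0.56). Among genes that missed the threshold, the ligand Kitl went from 554, 622 and 669 to 423, 96.9 and 287 CPM (log2 -1.30 ± 0.42, adjusted p = 0.127). Data were simulated with the UMI totals of these libraries and an assumed spread, the same for every gene and not estimated from them. There, 4-fold changes were called in 74% of genes and 2-fold changes in 3.16%, so most smaller changes would be missed under that spread. The parts of depth, number of libraries and spread in this were not separated.

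Whether the age change of capillary nuclei differed from that of the other nuclei of the same libraries was tested as an interaction with the library as a block. In the data simulated with that assumed spread, this test called 4-fold differences in 38% of genes for age and 23% for genotype. Against endocardial nuclei the rates were 36% and 55%, so a difference that did not pass may have been missed. In the measured data the test of the age change called 39 of 12506 genes (0.312%). Of these, 26 had a more positive (0.208%) and 13 a more negative change (0.104%) in capillary nuclei. None was called in every fit that left out 1 library. Genes of the lists with a more negative change were Foxo1 (log2 difference -1.64), Aqp1 (-1.45), Jam2 (-1.39), Igfbp4 (-1.24), Nid1 (-1.13), Sparc (-1.12), Cd34 (-1.11) and Cd93 (-1.07). Foxo1, a transcription factor of vessel quiescence, stood at 122, 104 and 79.0 CPM in capillary nuclei at control P6 and at 29.2, 73.5 and 82.2 at control P10, whereas other nuclei held 20.9 to 33.8 CPM at P6 and 53.7 to 62.4 at P10. The counts were 0 without control P10 library 2 in the edgeR fit, 1 without control P6 library 1 or control P10 library 3, and 56 to 109 without any other single library.

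For the genotype change the same test called 8 genes (0.064%), 1 more positive (0.008%) and 7 more negative (0.056%) in capillary nuclei, and DESeq2 called 0, with 297 genes at an unadjusted p under 0.05 against 674 in the edgeR fit. The change was more negative in capillary nuclei for Unc5b, a netrin receptor of tip cells (log2 difference -3.09), the kinase Plk2 (-2.14), Itgbl1 (-2.40), Trpm3 (-1.99), Nes (-1.71), Stard13 (-1.65) and Thsd7a (-1.35), and more positive for Lsamp (2.35). Unc5b stood at 87.6, 102 and 85.4 CPM in capillary nuclei of control P10 and at 0, 33.3 and 45.1 in knockouts, while in other nuclei it was 19.99 to 25.6 in controls and 40.3 to 57.5 in knockouts. Its knockout values rest on 0, 4 and 2 UMIs, those of Plk2 on 4, 8 and 6 and those of Nes on 3, 13 and 3. Itgbl1 overlapped between genotypes in capillary nuclei, at 44.9 to 58.4 CPM in controls and 22.6 to 66.6 in knockouts. In other nuclei Itgbl1 was at 31.2 to 40.4 CPM in controls and at 42.6, 269 and 103 in knockouts. Thsd7a overlapped in capillary nuclei too, at 354 to 424 CPM in controls and 196 to 466 in knockouts. Lsamp had 32, 7 and 0 UMIs in the knockout libraries, so its value rests on knockout library 1. Without control P10 library 2 the count was 1, without control P10 library 3 or knockout library 2 it was 2.

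Against endocardial nuclei, 1 of 2891 genes (0.0346%) differed in the age change, Igfbp7, an IGF binding protein of vessels (log2 difference -2.61): in capillary nuclei it had 688, 730 and 704 CPM in P6 libraries and 336, 572 and 591 at control P10, and endocardial nuclei held 51.5 to 107 CPM at P6 and 275 to 328 at P10. The endocardial values rest on 3, 4 and 2 UMIs at control P6 and on 20, 33 and 21 at control P10. In the genotype change 3 genes (0.104%) differed, 2 of them more positive in capillary nuclei (0.0692%), Igfbp5 (2.54) and Inhba (4.96), and Nrp1 more negative (-1.69). Without library factors, Nrp1 stood at 482, 449 and 858 CPM in capillary nuclei of knockouts against 1095 to 1139 CPM at control P10, and at 1510 to 2108 against 875 to 1199 CPM in endocardial nuclei. On the same scale Igfbp5 overlapped between genotypes in capillary nuclei, at 357 to 722 CPM in knockouts against 209 to 409 at control P10. In endocardial nuclei Igfbp5 stood at 453 to 500 CPM in knockouts against 735, 3130 and 1485 at control P10. Inhba had 2 to 9 UMIs in any P10 capillary library. Each of the 4 calls was lost without at least 1 library. The age count was 0 without control P6 library 2, control P10 libraries 2 or 3 or knockout library 2, and 43 without control P6 library 3. The genotype count was 0 without control P10 libraries 2 or 3 or knockout library 2, 12 without control P6 library 3, 10 without knockout library 1 and 6 without control P6 library 2.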

How the data were processed

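The data were 9 single-nucleus Drop-seq libraries, 3 per group. The authors deposited raw UMI counts per gene and barcode, exonic and intronic reads together as the names of the deposited files state, and the submitters' processing notes name STAR 2.5.2a and the build mm10. The annotation, strand setting and rule for keeping barcodes are not given in the sources used here. Members and gene lists were chosen with earlier results of these data known.

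UMIs were summed per library over its capillary nuclei and compared by edgeR 4.0.16 (quasi-likelihood F test, TMM factors, filterByExpr, all 9 libraries, R 4.3.3), with Benjamini-Hochberg adjustment over all genes tested. The 26 genes of the selection were left out. Interactions with other or endocardial nuclei held the library as a block. Shares were compared by exact permutation, and Wilson intervals are at 95%. Named genes were the 10 called genes with the largest change in each direction that had separate groups and at least 50 CPM in the higher group, the same among capillary-biased genes, called members and central uncalled members of 22 lists, and genes of at least 200 CPM with the highest ratio to other nuclei. Xist and Y-linked genes were left out of this ranking, and 1 gene that the rule names is not reported here. Alternatives covered DESeq2 1.42.0, other factors, filters, thresholds, Scrublet scores (scanpy 1.11.5; the highest 5% left out, doublets otherwise kept), thinning, covariates and left-out libraries. The limit of 3% cardiomyocyte UMIs and the factors from capillary-biased genes were chosen after seeing the data. The edgeR fits were tested on data simulated with the UMI totals of these libraries and an assumed spread, the same for every gene. There, 4-fold changes were called in 76% of genes for age and 74% for genotype, and 4-fold differences in 23% to 55% in the interaction tests. Gene positions are those of GENCODE on GRCm38, and promoter windows are RefSeq's on GRCm38.p6.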

Additional observations from a re-analysis of the deposited data

Results flagged for a closer look

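Each value here is a log2 difference between the change in capillary nuclei and the change in a comparison set of the same libraries, past an adjusted p of 0.05 in edgeR's interaction test. For the age change against other nuclei, it was positive for the coactivator Ppargc1a (1.45), the peptidase Corin (1.84), the homeobox gene Meis1 (1.53), Esrra (2.28), the growth factor Vegfa (1.25) and Gm42639 (2.40). The capillary UMIs behind Esrra were 2, 1 and 5 at control P6 and 3, 19 and 17 at control P10. Vegfa overlapped between ages in capillary nuclei, at 91.5 to 223 CPM at control P6 and 102 to 331 at control P10. In other nuclei Vegfa was at 458 to 581 CPM at control P6 and 192 to 407 at control P10. It was negative for Aqp1 (-1.45), Cd34 (-1.11), Foxo1 (-1.64), Sparc (-1.12), Cd93 (-1.07), Igfbp4 (-1.24), Nid1 (-1.13) and Jam2 (-1.39).

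For the genotype change against other nuclei, it was positive for Lsamp (2.35) and negative for Unc5b (-3.09), Plk2 (-2.14), Trpm3 (-1.99), Thsd7a (-1.35), Stard13 (-1.65), Itgbl1 (-2.40) and Nes (-1.71). Against endocardial nuclei, the age change differed for Igfbp7 (-2.61) and the genotype change for Igfbp5 (2.54), Inhba (4.96) and Nrp1 (-1.69).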

How the results depend on the processing

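The number of genes called between ages was 358 with DESeq2, 399 with at least 5 marker UMIs, 386 with at least 1000 UMIs, 226 with Malat1 of at least 5%, 313 after thinning, 320 with at most 3% cardiomyocyte UMIs, 70 with the cardiomyocyte covariate and 409 with the Xist covariate, and 307 to 741 with 1 library left out. Between genotypes it was 76 without the filter on low counts, 25 with at least 1000 UMIs, 6 with Malat1 of at least 5%, 31 after thinning, 10 with at most 3% cardiomyocyte UMIs, 3 with the cardiomyocyte covariate and 88 with the Xist covariate, and 16 to 85 with 1 library left out. The causes were not tested.

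For the age change against other nuclei the count was 75 with DESeq2, 111 with RLE factors, 123 with library totals, 78 unfiltered, 2 with at least 5 marker UMIs, 85 with Malat1 of at least 5%, 152 without high Scrublet scores, 83 without the shared barcodes in either library and 64 after thinning. In edgeR it was 0 with at least 1000 UMIs (650 genes at an unadjusted p under 0.05) and 0 with at most 3% cardiomyocyte UMIs (714 genes), where Gm42639 reversed to -0.16. It was 0 to 109 with 1 library left out. For the genotype change it was 0 with DESeq2, 5 unfiltered, 4 with at least 1000 UMIs, 3 with Malat1 of at least 5%, 3 after thinning, 1 with at most 3% cardiomyocyte UMIs and 1 to 8 with 1 library left out. Against endocardial nuclei the age count was 0 with DESeq2 (291 genes at an unadjusted p under 0.05), 3 unfiltered, 0 with at least 5 marker UMIs, 0 with at least 1000 UMIs, 3 with Malat1 of at least 5%, 7 after thinning and 0 to 43 with 1 library left out. The genotype count was 1 with DESeq2, 11 unfiltered, 5 after thinning and 0 to 12 with 1 library left out.

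With 1 library left out, the difference in share ran from -3.12 to 0.545 points for age, turning positive without control P6 library 1, and from -4.19 to -2.19 for genotype. Deviations of same-numbered libraries correlated between -0.14 and 0.11, and those of differently numbered libraries between -0.19 and 0.22. With so few libraries these values cannot decide whether library numbers pair the libraries. At P10, Xist was high in library 1 of both controls (1745 UMIs) and knockouts (5158 UMIs) and at 2 to 4 UMIs in libraries 2 and 3 of both. With the replicate number as a block the counts were 595 for age, 44 for genotype, 8 and 5 against other nuclei and 1 and 3 against endocardial nuclei. The planned limit of 2 cardiomyocyte UMIs could not be fitted, because 5 of the 6 P10 libraries held 0 such nuclei. Of the named genes, 10 of 89 for age and 2 of 21 for genotype were called in every alternative that gave a value. In the data simulated with an assumed spread, 2-fold changes were called in 10% of genes for age and 3.16% for genotype. How far depth, the number of libraries or the spread sets this was not tested.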
